A study of Mus musculus with 8 samples.

Results

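Molecular chaperones and their partners were compared between hearts of 4 male Gpihbp1-/- mice (KO1 to KO4) and 4 male wild-type mice (WT2, WT4, WT5 and WT6), all fed standard chow. The labels give no other allele or treatment and state neither age nor strain. Gpihbp1 encodes the endothelial protein that carries lipoprotein lipase to the capillary lumen, and the study asks how severe hyperchylomicronemia affects the heart. The members were the genes whose symbols name a heat shock protein of the Hspa, Hspb, Hspd, Hspe or Hsph series, a J protein of the Dnaja, Dnajb or Dnajc series, a BAG protein (Bag1 to Bag6) or the heat shock factors Hsf1 and Hsf2. They numbered 77 of 17190 listed genes. By where their proteins work, 54 were cytosolic or nuclear, 10 mitochondrial and 13 of the endoplasmic reticulum (ER). The rule took 27 Dnajc, 12 Dnajb and 4 Dnaja genes, 11 Hsp70 genes, 7 small heat shock proteins, 6 BAG genes, 3 of the Hsp110 family, the Hsp60 and Hsp10 pair, 2 heat shock factors, and 3 genes that carry the Hspb letters without being small heat shock proteins (Hspbp1, Hspbap1 and Hspb11). It does not take the Hsp90 genes or the small heat shock protein gene Cryab, which are described near the end as related genes.

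Hsp70 proteins bind unfolded stretches of other proteins in a cycle driven by ATP. J proteins (the Dnaj genes) deliver substrates and start ATP hydrolysis, and nucleotide exchange factors, among them the BAG and Hsp110 proteins, release the bound ADP so that the cycle can begin again. Small heat shock proteins hold unfolding proteins without ATP and are abundant in heart muscle, where several protect the contractile apparatus. Hsf1 raises transcription of the inducible members under heat or other proteotoxic stress by binding repeats of the triplet GAA and its reverse complement TTC, while the ER members answer mainly to the unfolded protein response.

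The libraries held 9065553 to 13492957 estimated read counts. Gpihbp1 had 0, 0, 1 and 0 reads in KO1 to KO4, against 1108, 1951, 833 and 1783 reads in WT2, WT4, WT5 and WT6, matching the genotype labels. The 8 cardiomyocyte markers were all present and are given in TPM, the abundance unit that corrects for library size and transcript length. A pair of libraries, KO2 and WT2, stood apart: the cardiomyocyte markers summed to 43707 TPM in KO2 and 73844 to 87363 TPM in the other KO hearts, against 41762 TPM in WT2 and 70898 to 80683 TPM in the other WT hearts. Actc1 among them had 17376 TPM in KO2 against 10369 TPM in KO1. It had 13238 TPM in WT2, against 8832 TPM in WT4 and 6755 TPM in WT6. Pln was also lower in WT6, at 1456 TPM, than in WT2, at 1533 TPM. The rest of these markers were lowest in KO2 and WT2 within their genotype. In the same pair the 6 macrophage markers summed to 3206 TPM in KO2 and 548 to 642 TPM in the other KO hearts, against 3896 TPM in WT2 and 291 to 561 TPM in the other WT hearts. The 6 fibroblast and matrix markers summed to 3655 TPM in KO2 and 2635 TPM in WT2, against no more than 638 TPM in any other heart, although Dcn among them, at 487 TPM in KO2 and 533 TPM in WT2, was near its level in the other hearts except WT6, where it was lower. The 5 cycling-cell markers summed to 98.5 TPM in KO2 and 74.7 TPM in WT2, against no more than 4.81 TPM elsewhere. WT6 also stood apart, with 18551 TPM over 5 erythroid markers, against 1793 to 3749 TPM in KO hearts and 1257 to 5049 TPM in the other WT hearts, and with a scaling factor of 0.678 where the other libraries had 0.964 to 1.162. In bulk tissue, fewer cells of a type and less RNA per cell cannot be told apart. The part of these library differences in the results on chaperones was not tested.

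Promoter sequences are shown for the genes to which the values below return. They are RefSeq windows of 300 bases, 250 before and 50 after the annotated start, on GRCm38.p6, while the submitters' processing notes name GRCm39 for the counts, so the windows serve as sequence and not as coordinates of the counts. A window was held for 63 of the 77 members. The inducible Hsp70 genes Hspa1a and Hspa1b, the J protein gene Dnaja1 that works with them, the mitochondrial co-chaperonin gene Hspe1 and the ER Hsp70 gene Hspa5 are printed 5′ to 3′ on the gene's strand. Capitals mark matches to a heat shock element, GAANNTTC or TTCNNGAA as its 2-unit form, and either of these followed by NNGAA or NNTTC so that the units alternate as its 3-unit form, in every gene but Hspa5. There they mark the ER stress element, CCAAT and CCACG with 9 bases of any kind between them.
Hspa1a promoter, chr17:34972107-34972406, minus strand: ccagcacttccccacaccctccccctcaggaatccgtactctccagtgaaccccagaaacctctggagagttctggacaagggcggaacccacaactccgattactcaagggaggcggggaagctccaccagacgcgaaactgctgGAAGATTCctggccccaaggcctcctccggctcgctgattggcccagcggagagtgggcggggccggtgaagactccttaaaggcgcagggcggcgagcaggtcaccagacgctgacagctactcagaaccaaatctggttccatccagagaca
Hspa1b promoter, chr17:34959189-34959488, minus strand: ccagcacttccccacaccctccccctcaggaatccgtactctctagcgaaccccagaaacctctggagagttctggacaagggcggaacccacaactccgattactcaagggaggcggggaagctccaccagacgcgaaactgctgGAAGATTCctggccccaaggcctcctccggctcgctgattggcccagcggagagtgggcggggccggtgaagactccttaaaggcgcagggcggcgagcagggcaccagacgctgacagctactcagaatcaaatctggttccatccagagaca
Dnaja1 promoter, chr4:40722218-40722517, plus strand: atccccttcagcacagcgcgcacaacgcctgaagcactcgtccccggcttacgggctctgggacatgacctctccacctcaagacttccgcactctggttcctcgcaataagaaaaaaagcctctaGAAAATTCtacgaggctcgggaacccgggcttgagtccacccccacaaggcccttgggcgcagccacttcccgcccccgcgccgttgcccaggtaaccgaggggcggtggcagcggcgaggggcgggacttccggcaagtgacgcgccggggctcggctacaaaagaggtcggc
Hspe1 promoter, chr1:55087898-55088197, plus strand: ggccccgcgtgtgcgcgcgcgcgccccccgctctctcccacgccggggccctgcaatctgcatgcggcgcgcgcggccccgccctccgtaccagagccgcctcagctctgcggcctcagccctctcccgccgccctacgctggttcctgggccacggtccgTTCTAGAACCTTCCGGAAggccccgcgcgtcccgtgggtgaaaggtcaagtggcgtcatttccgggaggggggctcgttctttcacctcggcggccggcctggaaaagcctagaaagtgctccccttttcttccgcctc
Hspa5 promoter, chr2:34771840-34772139, plus strand: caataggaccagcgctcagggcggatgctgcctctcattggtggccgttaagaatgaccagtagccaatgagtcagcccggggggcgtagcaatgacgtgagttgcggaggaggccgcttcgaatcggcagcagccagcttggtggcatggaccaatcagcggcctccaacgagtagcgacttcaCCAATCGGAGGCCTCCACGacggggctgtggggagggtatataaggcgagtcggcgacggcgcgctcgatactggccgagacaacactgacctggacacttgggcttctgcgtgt

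The Hspa1a and Hspa1b windows were identical at 296 of 300 positions, and in both the heat shock element began 104 bases before the start. In Dnaja1, which has 3 annotated windows, the element began 124 bases before the start of the printed one. Hspe1 and Hspd1, the genes of Hsp10 and Hsp60, are transcribed away from each other, and their windows share 285 bases, so the run in capitals for Hspe1, in which 2 matches to the 3-unit form overlap, lies in both windows. Counting both strands, and counting each 3-unit match also among the 2-unit ones, the 2-unit form was found in windows of 16 of the 63 member genes (25.4%), against 17.0% of all 27025 genes with a window, and 13 of those 16 members were cytosolic. The 3-unit form was found in 4 members (6.35%), namely Dnajb6, Hspd1, Hspe1 and Hsph1, against 0.662% of all genes. The ER stress element was found in 2 members (3.17%), Hspa5 and Dnajc3, against 0.137% of all genes, beginning 65 bases before the start in Hspa5 and 105 bases before it in Dnajc3. A match describes the letters of a window and is not evidence of a bound site.

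The level of the chaperones in these hearts was set by a few genes. On the TPM scale the members together made up 0.779%, 1.11%, 0.971% and 1.01% of all transcripts in KO1 to KO4, against 0.873%, 0.707%, 1.09% and 0.539% in WT2, WT4, WT5 and WT6. The groups overlapped, and WT6 was the lowest of the 8 hearts. The highest mean over the 8 hearts was that of Hspb7, the small heat shock protein of heart muscle that binds filamin C, at 1349 TPM. It was followed by Hspa8, the constitutive cytosolic Hsp70, at 1284 TPM and by the small heat shock protein genes Hspb6 at 1141 TPM, Hspb1 at 851 TPM and Hspb8 at 516 TPM. These 5 genes held 58.1% of the members' TPM, and the first 10 held 74.4%. Below them came Hspa5 at 314 TPM, the mitochondrial Hsp70 gene Hspa9 at 303 TPM, Hspb2 at 284 TPM, Hspe1 at 272 TPM and Dnajc15 at 266 TPM. The gap between Hspa5, Hspa9, Hspb2, Hspe1 and Dnajc15 was smaller than the spread of each over the hearts. The order of Hspb7 and Hspa8 differed by genotype. Hspb7 averaged 1633 TPM in KO and 1064 TPM in WT, and Hspa8 averaged 1337 TPM in KO and 1231 TPM in WT. Of the 77 members, 15 reached a mean of 100 TPM, 53 reached 10 TPM and 70 reached 1 TPM. The inducible genes were near the bottom of the order, with Hspa1a at 5.20 TPM and Hspa1b at 4.17 TPM, while Hsf1 stood at 35.7 TPM and Hsf2 at 7.06 TPM.

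For the comparison of genotypes, counts were scaled to CPM, which corrects for library size by TMM factors but not for transcript length, and tested with edgeR's quasi-likelihood F-test over all 12826 genes that passed the low-count filter. Of the 77 members, 70 passed the filter. The 7 that did not (Dnajb3, Dnajb7, Dnajb13, Dnajc5b, Dnajc6, Dnajc22 and Hspb9) had at most 13 reads in any heart. No member passed an adjusted p of 0.05: the count was 0 of 70 in edgeR, and the adjusted p was 0.999977 for each of them, against 4 of 12826 tested genes called (0.0312%), 3 of them higher in KO (0.0234%) and 1 lower (0.0078%). At an unadjusted p under 0.05 the count was 2 of 70 (2.86%), against 116 of all tested genes (0.904%). DESeq2 also called 0 members at its adjusted threshold and found 3 at an unadjusted p under 0.05, where 258 of 16635 genes did (1.55%). Limma on log2(TPM + 1) found 0 members by either, where 63 of 12826 genes had an unadjusted p under 0.05 (0.491%). EdgeR with libraries scaled by their total count also found 0 members by either, where 68 of 12826 genes had an unadjusted p under 0.05 (0.53%). The genotypes did not overlap in CPM in 1 of 70 members (1.43%), against 0.632% of all tested genes.

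The fold changes went in either direction. Log2 fold changes of KO over WT were above 0 in 40 of 70 members, with a median of 0.02, against 6046 of 12826 tested genes (47.1%) and a median of -0.02. They ran from -1.18 for Hspa1a to 0.69 for Dnajc12. The number of members above 0 depended on the scaling: it was 50 of 70 when libraries were scaled by their total count and 60 of 70 on the log2(TPM + 1) scale, which moved the median of all tested genes to 0.08 and 0.25. Cytosolic members were above 0 in 26 of 47 (median 0.01), mitochondrial members in 4 of 10 (median -0.09) and ER members in 10 of 13 (median 0.06). Of the families, the Dnajc genes were above 0 in 19 of 24, the Hsp70 genes in 5 of 11, the small heat shock proteins in 3 of 6 and the BAG genes in 3 of 6. The 95% confidence interval lay wholly within 1 log2 unit of 0 for 47 of the 70 members (67.1%), against 55.7% of all tested genes, and this held for 12 of 13 ER members, 32 of 47 cytosolic members and 3 of 10 mitochondrial members. For the other 23 members a difference of 2-fold was not outside the interval at this depth and number of hearts.

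**Figure D1:**
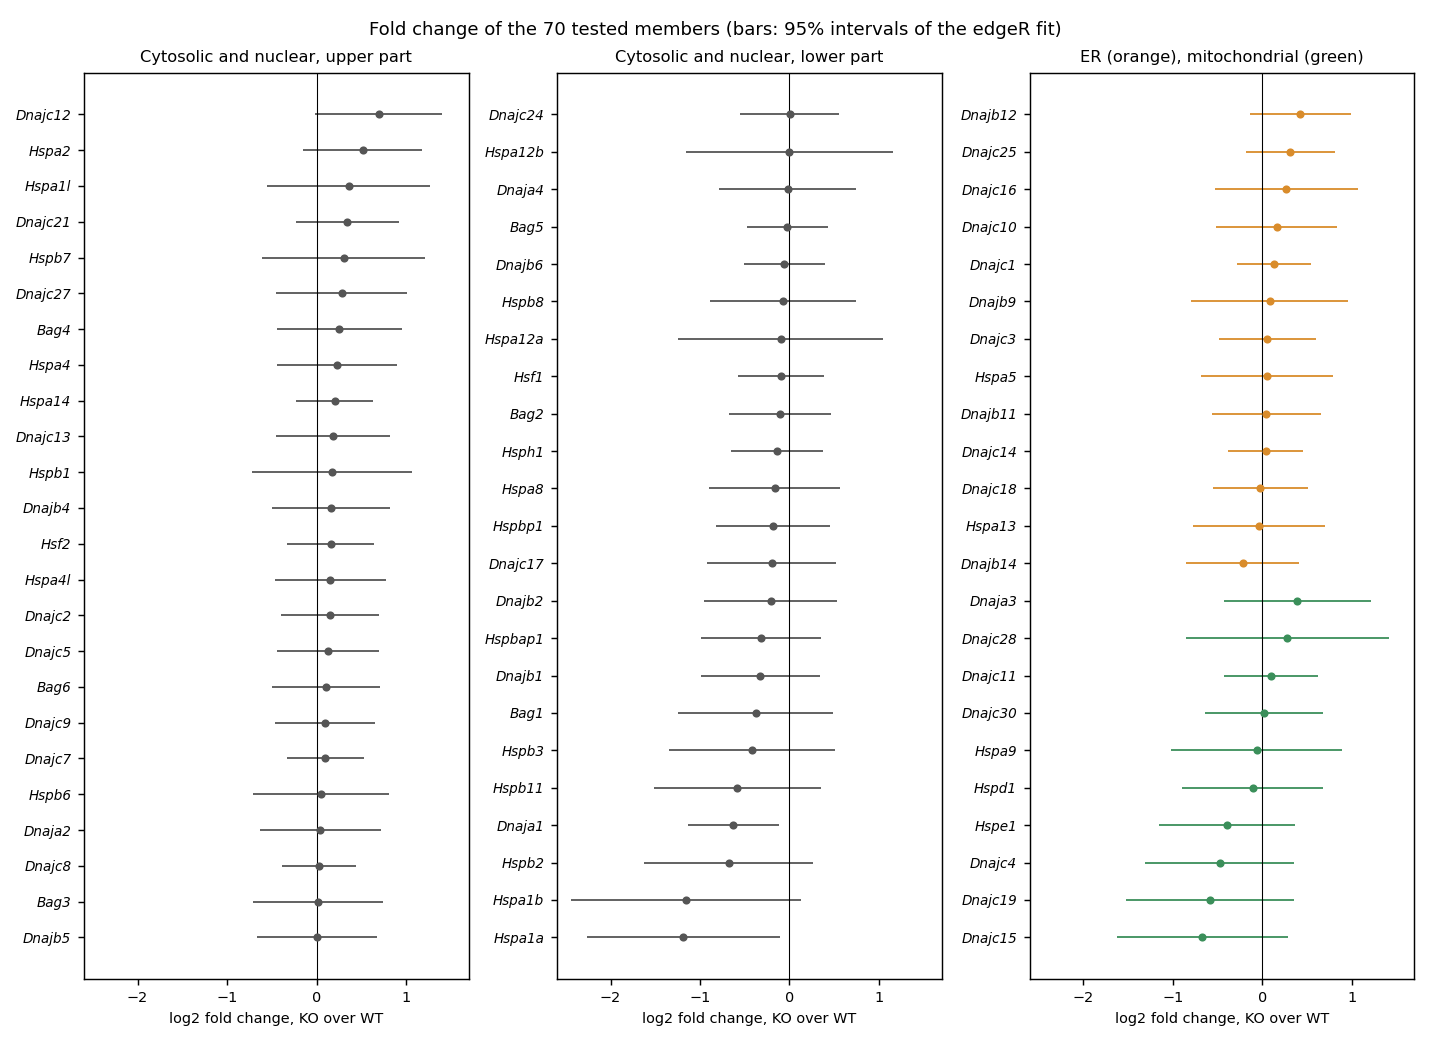
Log2 fold change of KO over WT for the 70 tested members, with 95% confidence intervals from edgeR's quasi-likelihood fit (x axis, log2 scale), cytosolic members in grey, ER members in orange and mitochondrial members in green. The intervals of Dnaja1 and Hspa1a alone leave out 0 before adjustment, and no member had an adjusted p under 0.05.

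Among the genes that heat shock itself induces, the cytosolic Hsp70 pair lay below every WT heart in 3 of the 4 KO hearts in CPM, though not in TPM. Hspa1a had 5.93, 10.5, 4.5 and 5.37 CPM in KO1 to KO4, against 26.5, 18.8, 7.51 and 7.03 CPM in WT2, WT4, WT5 and WT6. WT2 and WT4 lay above every KO heart, while KO2 lay above WT5 and WT6, so the groups overlapped. The means were 6.58 ± 2.68 CPM in KO and 15 ± 9.41 CPM in WT (SD, n = 4 each), with a log2 fold change of -1.18 (SE 0.48, 95% confidence interval -2.26 to -0.11, edgeR adjusted p = 0.999977). Hspa1b had 3.01, 10.8, 3.13 and 4.33 CPM in the KO hearts, against 23.3, 12.3, 6.99 and 5.06 CPM in the WT hearts. KO2 again lay among the WT values and the other 3 KO hearts lay below all 4 WT hearts, with a log2 fold change of -1.16 (SE 0.57, interval -2.44 to 0.13).

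Hspa1a and Hspa1b are near-identical copies, and estimated counts divide shared reads between them, so their separate values are uncertain. Summed, after this had been seen, they had 101, 325, 78 and 103 reads in KO1 to KO4, against 713, 327, 165 and 86 reads in WT2, WT4, WT5 and WT6. As CPM the sum was 8.93, 21.3, 7.64 and 9.70 in the KO hearts, against 49.7, 31.1, 14.4 and 12.1 in the WT hearts. In 3 KO hearts the sum in CPM lay below all WT hearts, and KO2 lay between WT4 and WT5. On the TPM scale WT6 was the lowest heart for both genes. WT6 had 1.47 TPM for Hspa1a, against 2.12 to 6.09 TPM in KO hearts. For Hspa1b WT6 had 1.08 TPM, against 1.46 to 6.26 TPM in KO hearts. The log2 fold change of the sum was -1.17 (SE 0.50, interval -2.30 to -0.04, edgeR adjusted p = 0.999958). It was -0.70 without WT2 and -1.62 without KO2. For the single genes, leaving out WT2 gave -0.76 for Hspa1a and -0.61 for Hspa1b. A list of 8 immediate early genes, which tissue handling is known to induce, summed to 236, 291, 209 and 212 TPM in KO1 to KO4, against 362, 383, 284 and 70.3 TPM in WT2, WT4, WT5 and WT6. WT2 and WT4 were the highest for this sum as they were for Hspa1a, and its part in the Hspa1a and Hspa1b values was not tested. Of the listed genes, Ier2 alone had WT2 and WT4 above every other heart. Jun was highest in WT5 (53.4 TPM) and KO2 (49.2 TPM), and Dusp1 in WT4 (140 TPM) and WT5 (106 TPM). The related Hsp70 gene Hspa1l, known for its expression in testis, had 5.93, 15.8, 10.3 and 8.29 CPM in KO hearts, against 12.7, 4.09, 6.90 and 7.73 CPM in WT hearts, with the groups overlapping.

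Dnaja1 was the member with the smallest p. It encodes a farnesylated cytosolic J protein that pairs with Hsp70 and Hspa8. It had 79.8, 96.9, 89.3 and 92.5 CPM in KO1 to KO4, against 149.6, 175, 107 and 123 CPM in WT2, WT4, WT5 and WT6. In TMM-scaled CPM every KO heart lay below every WT heart, as in 47 of 12826 tested genes (0.366%). The means were 89.6 ± 7.25 CPM in KO and 139 ± 29.9 CPM in WT (SD, n = 4 each), with a log2 fold change of -0.63 (SE 0.23, interval -1.14 to -0.12, edgeR adjusted p = 0.999977). On the TPM scale the groups overlapped, since Dnaja1 had 33.2, 45.6, 33.9 and 38.5 TPM in the KO hearts, against 55.5, 73.4, 49.3 and 21.5 TPM in the WT hearts. On that scale WT6 was the lowest heart, and limma on log2(TPM + 1) gave a difference of -0.28. By total count the groups overlapped too, since WT6 had 877 Dnaja1 reads among 10514930 counts and KO1 had 902 among 10346930. With libraries scaled by their total count the log2 fold change was -0.56 (edgeR unadjusted p = 0.092). Without KO2 and WT2 the log2 fold change of Dnaja1 was -0.63, and without WT6 as well it was -0.69. WT6 was the lowest heart on the TPM scale for 58 of 70 members (82.9%) and for 77.1% of all tested genes.

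The other inducible cytosolic genes differed less. Dnajb1, the J protein of the classical Hsp40 type, had 23.2, 46.7, 29.7 and 32.8 CPM in KO hearts, against 59.5, 32.5, 29.4 and 44.3 CPM in WT hearts, a log2 fold change of -0.32 (SE 0.30). KO2 and WT2 were the highest heart of their genotype, and the log2 fold change of Dnajb1 was -0.54 without KO2, -0.10 without WT2 and -0.31 without both. Hsph1, the inducible Hsp110 that acts as an exchange factor, had 39.6, 44.7, 63.6 and 59.0 CPM in KO hearts, against 58.0, 49.3, 70.9 and 49.5 CPM in WT hearts (-0.14, SE 0.23). Bag3, which with Hspb8 and Hsp70 directs damaged muscle filament proteins to autophagy, had 269, 267, 379 and 405 CPM in KO hearts, against 242, 231, 439 and 389 CPM in WT hearts (0.02, SE 0.32). Each genotype held a lower pair and a higher pair of hearts for Bag3, at nearly the same levels. The regulator Hsf1 had 55.3, 42.3, 53.7 and 57.6 CPM in KO hearts, against 42.5, 59.7, 52.9 and 68.6 CPM in WT hearts (-0.10, interval -0.58 to 0.38), and Hsf2, a related factor, gave 0.16 (interval -0.33 to 0.64). For both factors a 2-fold difference lay outside the interval.

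**Figure D2:**
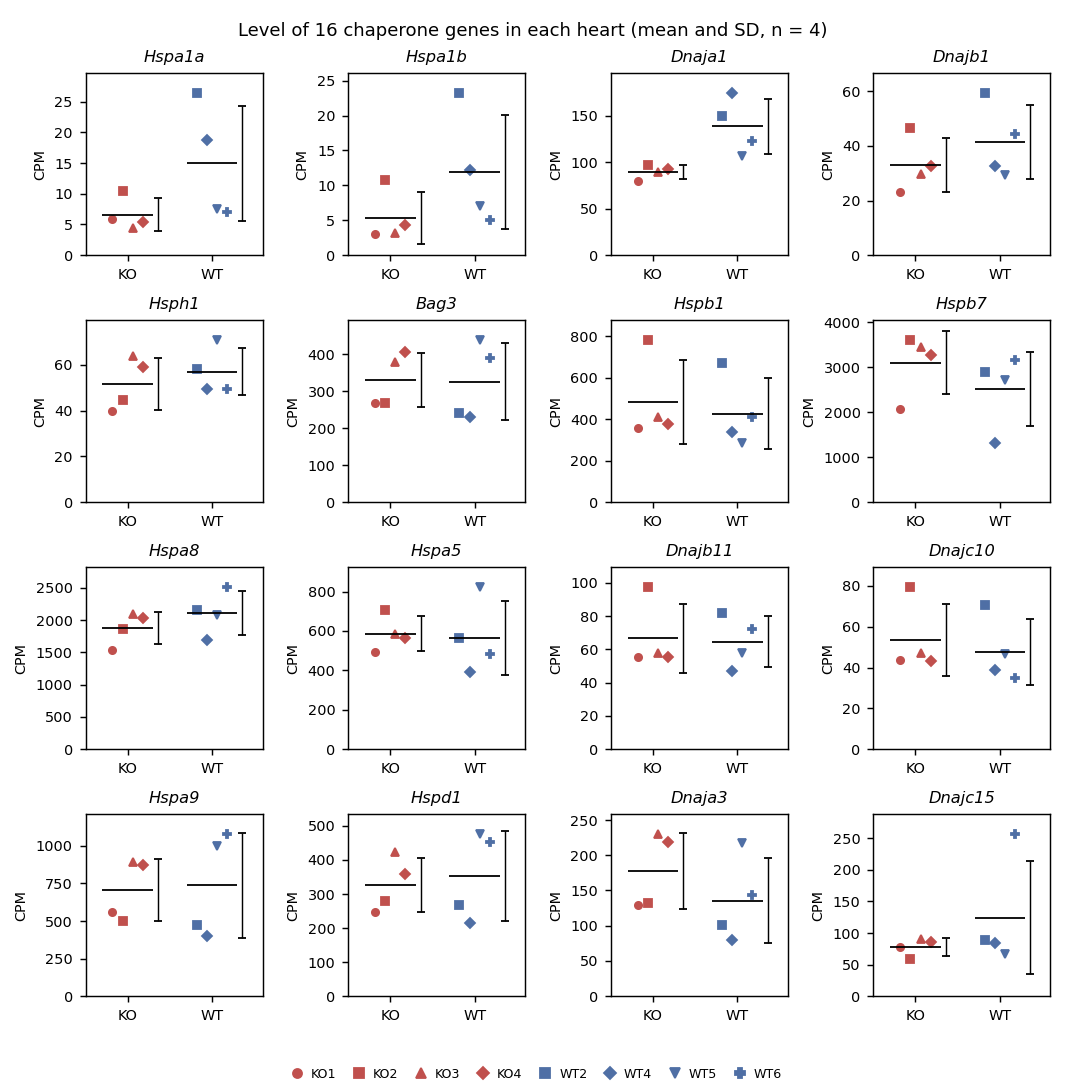
TMM-scaled CPM (y axis, linear, from 0) of 16 members in the KO hearts (left in each panel) and WT hearts (right), 1 point per heart, with a line at the mean and a bar for the SD (n = 4 each). The KO points of Dnaja1 lie below all WT points. In Hspa1a and Hspa1b the KO2 point lies among the WT points and the other KO points lie below them. In Hspb1, Dnajb11 and Dnajc10 the KO2 point lies far above the other KO points.

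The small heat shock proteins, which include the most abundant member, Hspb7, did not separate the genotypes. Hspb7 had 2082, 3611, 3453 and 3268 CPM in KO hearts, against 2890.3, 1308, 2711 and 3159 CPM in WT hearts, a log2 fold change of 0.30 (SE 0.41). WT4 and KO1 were the lowest heart of their genotype. Hspb6, also called Hsp20, averaged 1044 ± 223 CPM in KO and 1012 ± 256 CPM in WT (SD, n = 4 each), and Hspb8, the partner of Bag3, averaged 679.7 ± 141 CPM in KO and 715 ± 282 CPM in WT. Hspb1, which binds actin filaments, had 356, 783, 409 and 378 CPM in KO hearts, against 673, 338, 286 and 409 CPM in WT hearts (0.17, SE 0.40). KO2 and WT2 were the highest hearts for Hspb1, and the macrophage and matrix markers were highest in the same hearts, a relation whose part in Hspb1 was not tested. Hspb2, the myotonic dystrophy kinase binding protein, had 95.3, 143, 118 and 94.7 CPM in KO hearts, against 194, 129, 73.0 and 325 CPM in WT hearts. Its log2 fold change was -0.68 (SE 0.42, interval -1.62 to 0.27), and WT6 gave the highest value and WT5 the lowest. Hspb3, a muscle member of low level, gave -0.42 (SE 0.41).

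The genotypes also overlapped in the constitutive cytosolic machinery. Hspa8 had 1538, 1863, 2088 and 2041 CPM in KO hearts, against 2151, 1696, 2074 and 2519 CPM in WT hearts, a log2 fold change of -0.16 (SE 0.33, interval -0.90 to 0.57). Its J protein partners Dnaja2, at 0.04 (SE 0.30), and Dnaja4, at -0.02 (SE 0.34), lay close to 0, as did Dnajb5, at 0.01 (SE 0.30), and Dnajb6, a suppressor of protein aggregation with muscle disease in humans, at -0.06 (SE 0.20). The exchange factor Hspa4 had 105, 172, 175 and 163 CPM in KO hearts, against 156, 84.8, 174 and 110.2 CPM in WT hearts (0.23, SE 0.30), and its relative Hspa4l gave 0.16 (SE 0.28). Bag1, an exchange factor that also binds the anti-apoptotic protein Bcl-2, had 212, 144, 246 and 210.1 CPM in KO hearts, against 176, 197, 195 and 488 CPM in WT hearts. The WT6 value stood far above the others for Bag1, and the log2 fold change was -0.38 (SE 0.38). Bag2 gave -0.11, Bag4 0.26, Bag5 -0.02 and Bag6 0.10.

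Of the cytosolic members, the 2 with the greatest positive values were of low level. Dnajc12, a co-chaperone of the aromatic amino acid hydroxylases, had 6.46, 6.24, 11.6 and 11.3 CPM in KO hearts, against 5.64, 4.94, 7.07 and 4.22 CPM in WT hearts. KO3 and KO4 lay above every WT heart and KO1 and KO2 lay below WT5, with a log2 fold change of 0.69 (SE 0.32, interval -0.02 to 1.41). Hspa2, the Hsp70 needed in developing sperm, had 10.4, 13, 10.1 and 8.38 CPM in KO hearts, against 9.20, 9.03, 6.64 and 4.36 CPM in WT hearts (0.52, interval -0.15 to 1.18). Only KO4 lay within the WT values. The next members in this order were the ER membrane J protein Dnajb12 and the mitochondrial Dnaja3.

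Of the compartments, the mitochondrial members had the widest spread between hearts, with a median within-group SD of 0.54 on the log2(CPM + 1) scale. It was 0.39 for cytosolic members, 0.36 for ER members and 0.43 for all tested genes. The related mitochondrial protein quality genes, described near the end, had 0.42, and the Hsp70 family, which spans the compartments, had 0.56. Hspa9, the Hsp70 of the matrix and the import motor, had 562, 498, 892 and 871 CPM in KO hearts, against 474, 399.6, 996 and 1081 CPM in WT hearts. Each genotype held 2 lower and 2 higher hearts, and the log2 fold change was -0.06 (SE 0.43, interval -1.02 to 0.89). Hspd1, the Hsp60 chaperonin, showed the same hearts high, with 249, 279, 423 and 358 CPM in KO hearts, against 266, 216, 477 and 452 CPM in WT hearts (-0.11, SE 0.35). The matrix J protein Dnaja3 had 129, 132, 231 and 219 CPM in KO hearts, against 101, 80.0, 217 and 144 CPM in WT hearts (0.39, SE 0.37). KO3, KO4 and WT5 were the high hearts in each of these 3 genes, and WT6 joined them in Hspa9 and Hspd1.

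Short mitochondrial genes showed another pattern in CPM, with WT6 above the rest. Dnajc15 and Dnajc19 encode J proteins of the inner membrane tied to the import motor, and loss of DNAJC19 causes a dilated cardiomyopathy in humans. Dnajc15 had 77.5, 58.3, 90.0 and 85.9 CPM in KO hearts, against 88.5, 84.6, 67.0 and 257 CPM in WT hearts, a log2 fold change of -0.67 (SE 0.43, interval -1.63 to 0.28). Dnajc19 had 67.2, 43.1, 69.5 and 62.9 CPM in KO hearts, against 74.6, 57.4, 48.3 and 183 CPM in WT hearts (-0.58, SE 0.42). Hspe1, the Hsp10 lid of the chaperonin, had 102, 110.3, 123 and 104 CPM in KO hearts, against 148, 91.8, 91.0 and 246 CPM in WT hearts (-0.39, SE 0.34). WT6 was the highest heart in all 3 genes in CPM, and the WT values without it reached into the KO range. On the TPM scale WT6 was highest for Dnajc15, at 334 TPM against 276 TPM in KO4. It was also highest for Dnajc19, at 216 TPM against 195 TPM in WT2. For Hspe1 WT6 had 248 TPM, against 329 TPM in WT2 and 314 TPM in KO2. Hspe1 and Hspd1, whose promoter windows overlap as printed above, did not have the same order of hearts. In CPM, WT5 was the highest for Hspd1 and the lowest for Hspe1.

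The departure of WT6 and WT5 went with transcript length across the members, taking the length implied by the deposited counts and FPKM values. Across the 70 tested members, Spearman's rho between that length and the heart's deviation from the mean of the 8 hearts on the log2(CPM + 1) scale was -0.56 in WT6 and 0.64 in WT5, and lay between -0.13 and 0.36 in the other hearts. Across 12702 tested genes it was -0.53 in WT6 and 0.50 in WT5. The members share their library in each of these values, which are descriptions. The 11 members shorter than 1000 bases had a median deviation of 1.03 in WT6, where 9 of them lay above the mean, and of -0.43 in WT5, where 1 did. The 59 longer members had medians of -0.03 in WT6 and 0.24 in WT5. Among the 13 ER members the relation was near absent, at -0.07 in WT6 and -0.10 in WT5. Their implied lengths ran from 1619 bases (Dnajb9) to 5518 bases (Dnajc16). None was among the members shorter than 1000 bases, so these values do not cover that range. The part of length in the fold changes of the short members was not tested. Without WT6, the log2 fold change was -0.05 for Dnajc15, 0.00 for Dnajc19, -0.02 for Hspe1, 0.08 for Bag1 and -0.24 for Hspb2.

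**Figure D3:**
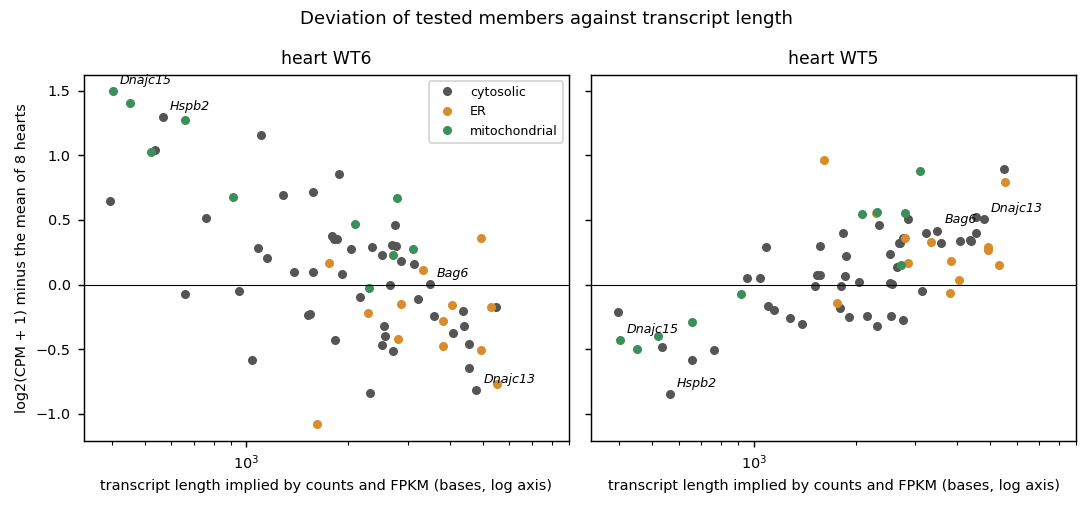
Deviation of WT6 (left) and WT5 (right) from the mean of the 8 hearts on the log2(CPM + 1) scale (y axis) against implied transcript length in bases (x axis, log scale), 1 point per tested member. Short members lie high in WT6 and low in WT5, with Spearman's rho of -0.56 and 0.64 over the 70 members.

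The ER members had the smallest median within-group SD of the 3 compartments, at 0.36 against 0.39 for cytosolic members, and none separated the genotypes. The related ER and unfolded protein response genes, described near the end, had 0.51. Hspa5, the ER Hsp70 known as BiP and a main target of the unfolded protein response, had 492, 707, 582 and 567 CPM in KO hearts, against 567, 389, 825 and 482 CPM in WT hearts. The KO values lay within the WT range, and the log2 fold change was 0.05 (SE 0.33, interval -0.68 to 0.79). The luminal J proteins that serve it gave 0.05 (SE 0.27) for Dnajb11, 0.16 (SE 0.30) for Dnajc10, which also reduces disulfides, 0.06 (SE 0.24) for Dnajc3 and 0.08 (SE 0.39) for Dnajb9. Dnajb11 had 55.6, 97.7, 58.1 and 55.5 CPM in KO hearts, against 81.6, 47.0, 57.9 and 72.1 CPM in WT hearts, and Dnajc10 had 43.7, 79.6, 47.1 and 43.2 CPM in KO hearts, against 70.8, 39.0, 46.5 and 34.7 CPM in WT hearts. In both genes KO2 and WT2 were the 2 highest hearts, and they were also the highest for the macrophage, matrix and cycling markers, whose part in these values was not tested. Leaving out KO2 turned the sign of these small values: without it the log2 fold change was -0.20 for Dnajb11, -0.10 for Dnajc10 and -0.16 for Hspb1, and without WT2 it was 0.18, 0.41 and 0.48 for the same genes. Without both it was -0.06 for Dnajb11, 0.16 for Dnajc10 and 0.14 for Hspb1. Dnajb12, which sits in the ER membrane, had 36.1, 38.7, 50.2 and 48.0 CPM in KO hearts, against 29.0, 25.3, 47.2 and 27.1 CPM in WT hearts. WT5 alone among WT hearts reached the KO values, and the log2 fold change was 0.43 (SE 0.25, interval -0.14 to 0.99).

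Over the tested members, KO2 and WT2 were the 2 highest hearts for 9 of 70 (12.9%, against 22.2% of all tested genes): Dnajb1, Dnajb11, Dnajc9, Dnajc10, Dnajc14, Dnajc24, Hspa1l, Hspa13 and Hspb1. They were the 2 lowest for 9 others (12.9%, against 16.4% of all tested genes): Bag1, Dnaja4, Dnajb2, Dnajb5, Dnajc27, Dnajc28, Hsf1, Hspa12a and Hspa12b. Hspa12b, a distant Hsp70 relative of endothelial cells, had 101, 32.7, 61.4 and 58.5 CPM in KO hearts, against 22.4, 123, 69.7 and 38.5 CPM in WT hearts. It was low in KO2, WT2 and WT6, the hearts whose 5 endothelial markers summed to 270, 171 and 138 TPM, against 348 to 604 TPM in the other KO hearts and 448 to 788 TPM in the other WT hearts, and the part of these markers in Hspa12b was not tested. Its log2 fold change was 0.00 (SE 0.52) over all hearts, 0.21 without KO2, -0.29 without WT2, -0.20 without WT6 and -0.38 without the 3 hearts. Hspa12b and its relative Hspa12a had the widest within-group SDs of the members, at 0.87 and 0.90 on the log2(CPM + 1) scale, followed by Dnajc28 at 0.85, Hspa1b at 0.81 and Hspa1a at 0.71. The narrowest were Dnajc7 at 0.14, Dnajc8 and Dnajc1 at 0.15 and Dnajb6 and Dnajc24 at 0.16. In CPM, WT4 was the lowest heart in 38.6% of the members, against 17.0% of all tested genes. In TPM it was the lowest in 4.29% of the members, against 2.53% of all tested genes.

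**Figure D4:**
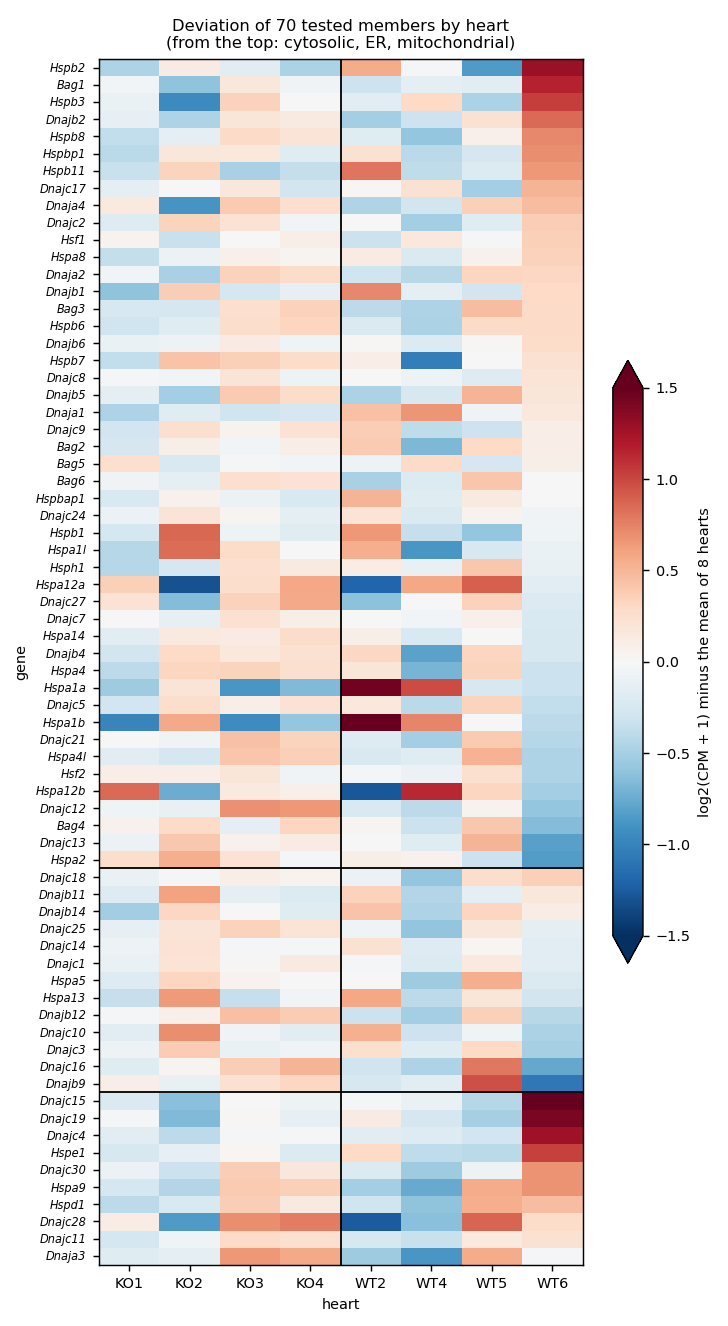
Deviation of each tested member from its mean over the 8 hearts on the log2(CPM + 1) scale (colour), with members in rows by compartment and the hearts KO1 to KO4 and then WT2, WT4, WT5 and WT6 in columns. WT6 is high for short genes such as Dnajc15 and WT4 is low for many members.

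Genes that work beside the members gave no call either. Of 14 genes of the Hsp90 machine and further cytosolic stress genes, 0 were called by edgeR and 0 had an unadjusted p under 0.05, and 2 were above 0 (median -0.15). Chordc1, an Hsp90 co-chaperone, had 25.9, 28.5, 35.7 and 36.9 CPM in KO hearts, against 39.6, 42.9, 43.6 and 40.5 CPM in WT hearts, a log2 fold change of -0.39. The groups did not overlap for Chordc1 in TMM-scaled CPM, with KO below WT as in 0.366% of all tested genes. They did overlap in TPM, as for Dnaja1. Cryab, the alpha-B-crystallin that muscle holds in bulk, had 2793, 6210, 3349 and 2914 CPM in KO1 to KO4, against 5805, 2258, 2260 and 5141 CPM in WT2, WT4, WT5 and WT6 (-0.02, SE 0.49). KO2, WT2 and WT6 were the high hearts for Cryab. Its log2 fold change was -0.35 without KO2, 0.25 without WT2, 0.14 without WT6 and 0.42 without the 3 hearts. Of the 4 atrial markers, Nppa, which stressed ventricles also make, had 341, 10791, 583 and 525 TPM in KO1 to KO4, against 5933, 460.4, 375 and 2807 TPM in WT2, WT4, WT5 and WT6. Myl4, Myl7 and Sln had 804, 643 and 665 TPM in WT6, against no more than 3.56 TPM in any other heart, and the part of these markers in Cryab was not tested. The inducible Hsp90 gene Hsp90aa1 gave -0.05 (SE 0.34) and the constitutive Hsp90ab1 0.10 (SE 0.32). Of the 8 subunits of the cytosolic chaperonin TRiC 1 was above 0, of 14 mitochondrial protein quality genes 5 and of 20 ER and unfolded protein response genes 9, with medians of -0.11, -0.05 and -0.02. In each of these lists 0 genes were called by edgeR and 0 had an unadjusted p under 0.05. Xbp1, a transcription factor of the unfolded protein response, gave -0.48 (SE 0.29) and Ddit3, its pro-apoptotic factor, -0.39 (SE 0.34).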

How the data were processed

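RNA from heart tissue was read as strand-specific poly(A) libraries on a DNBSEQ instrument, per the labels' protocols, in which 1 paragraph names rat tissue although every sample is given as mouse. The authors deposited expected (estimated) counts per gene and library, TPM values and FPKM values, per the file headers. HISAT, Bowtie2 and the build GRCm39 are named in the submitters' processing notes, with no versions, and which program made the counts is not stated there. A further 8 per-sample columns were empty and were not used. Between 4.32% and 5.89% of count values in a library were not whole. Estimated counts can divide reads between near-identical copies.

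Groups and numbers came from the sample titles. The labels do not say whether hearts share a litter, day or batch, so p-values measure only the spread between these samples. The expected counts deposited by the authors were rounded, filtered with filterByExpr (minimum count 10, minimum total 15) and fitted with edgeR 4.0.16 (R 4.3.3, TMM, robust quasi-likelihood F-test, no covariates). P-values were adjusted by Benjamini-Hochberg over 12826 genes, with a threshold of 0.05. SE is the log2 fold change over the root of F. The common biological coefficient of variation was 43.69%. The TPM values deposited by the authors were used for levels between genes and for an alternative with limma 3.58.1 on log2(TPM + 1), chosen after seeing the data, as was the sum of Hspa1a and Hspa1b. The FPKM values deposited by the authors gave implied transcript lengths, for libraries with FPKM of at least 0.5. Within-group SDs were taken on log2(CPM + 1). DESeq2 1.42.0, other scalings and filters, a replicate block and left-out libraries were the other alternatives. No 2 libraries agreed within sampling noise (smallest chi-square per degree of freedom 7.289). Genes named singly were main members by role, those with the greatest fold changes and the widest and narrowest spreads. The members and lists were chosen with earlier results of these data known.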

Additional observations from a re-analysis of the deposited data

Results flagged for a closer look

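Among the members named singly, 110 sets of 4 hearts of a genotype were examined for a heart far from the other 3, and 9 had one. The bound used would flag about 1 in 20 sets of independent, normally distributed values. The genes share their hearts and some were named for their spread, so that rate does not apply to these sets. KO2 was such a heart in 5 genes, with 97.7 CPM for Dnajb11, 79.6 CPM for Dnajc10, 76.8 CPM for Dnajc3, 10.8 CPM for Hspa1b and 783 CPM for Hspb1, each above the other KO hearts. WT6 was such a heart for Bag1, at 488 CPM, and for Dnajc15, at 257 CPM, above the other WT hearts. KO3 lay above the other KO hearts for Dnajb6, at 117 CPM, and KO1 lay below them for Hspa4, at 105 CPM.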

How the results depend on the processing

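The count of all genes past the threshold was 4, and it was 8 with DESeq2, 2 with a strict filter on low counts and 2 to 3 when 1 heart was left out. Members past the threshold numbered 0 under every alternative except the replicate block described next, with 0 to 7 of 70 at an unadjusted p under 0.05 when 1 heart was left out. The 7 (10%) came without WT5, where 841 of 13035 genes passed (6.45%), and without KO2 and WT2 there were 3 (4.29%), against 148 of 12766 genes (1.16%). The replicate block could use only numbers 2 and 4, whose hearts deviated together with r = 0.9192 and 0.1017. KO1 and WT4, which differ in number, had r = 0.7232. The labels do not describe hearts of the same number as pairs, and they were not taken as such. With that block 168 of 12826 genes and 2 of 70 members were called by edgeR. These members were the near-identical copies Hspa1a (log2 fold change -1.55) and Hspa1b (-1.28), whose estimated counts divide shared reads. At an unadjusted p under 0.05 the block gave 8 of 70 members (11.4%), against 1448 of 12826 genes (11.3%). The median log2 fold change moved with the block to 0.2342 for all members, 0.1888 for cytosolic, 0.3388 for mitochondrial and 0.2995 for ER members, and with limma on log2(TPM + 1) to 0.3576 for all, 0.3483 for cytosolic, 0.3113 for mitochondrial (from -0.0857) and 0.367 for ER members, where the median of all tested genes was 0.2464. When 1 heart was left out the median ran from -0.0619 to 0.0828 for all members, from -0.0563 to 0.0531 for cytosolic, from -0.2697 to 0.1092 for mitochondrial and from -0.0354 to 0.1712 for ER members. The cause was not tested. Of 55 members named singly and tested, 37 changed sign in at least 1 alternative. Dnaja1 ran from -0.77 to -0.28 and Hspa1a from -1.55 to -0.61 over the alternatives. With 4 hearts a genotype, 23 members have intervals that reach 1 log2 unit.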
